A study of Mus musculus with 6 samples.

Results

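Of the 32531 gene features listed in each library, 83 were nuclear-encoded genes of the mitochondrial respiratory chain, chosen by symbol (Nduf, Sdh, Uqcr, Cox4 to Cox8 and Atp5 genes) by a pattern that uses no measured value, although the set was picked with earlier results of these data known. By symbol, 36 fell in complex I, 4 in complex II, 8 in complex III, 18 in complex IV and 17 in complex V. The RNA came from the hypothalamus of adult, untreated control mice of the line Lhx5-TRAP DT154, which carries EGFP fused to the ribosomal protein Rpl10a in cells where the driver gene Lhx5, a LIM-homeodomain transcription factor, is active. In 3 libraries the RNA was that of polysomes pulled down with anti-EGFP antibodies (IP), and these were compared with 3 libraries labelled unbound, whose titles say input. Both groups carried the same transgene and had no treatment, so the comparison is of RNA fractions and not of genotypes. The labels do not say whether the libraries came from separate animals or pools, so p-values measure the spread between these libraries, which may be technical.

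The respiratory chain passes electrons from NADH (complex I) and succinate (complex II) to ubiquinone, then through complex III and cytochrome c to oxygen at complex IV, and complexes I, III and IV pump protons across the inner mitochondrial membrane. Complex V, the ATP synthase, uses that proton gradient to make ATP, on which neurons rely heavily to restore ion gradients after firing. A few core subunits are encoded in mitochondrial DNA, and all the others are translated from nuclear mRNAs on cytosolic ribosomes, which is the RNA that an Rpl10a tag can capture.

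Reads counted to genes numbered 32471045 to 46293837 per library in IP and 32926146 to 40768577 in unbound. Lhx5 stood at 56.7, 58.1 and 70.5 CPM (the count scaled to a common library size, as in the test) in IP, against 2.03, 1.86 and 6.28 CPM in unbound libraries 1, 2 and 3. The summed level of 20 pan-neuronal markers was 24318 to 25744 CPM in IP and 16532 to 17831 CPM in unbound, and 12 of these markers were higher in IP while 1 was lower. All 12 astrocyte, 11 oligodendrocyte and 6 oligodendrocyte precursor markers and 9 of 10 microglial markers were lower in IP. The unbound library 3 stood apart from the other unbound libraries, with Ttr, a choroid plexus transcript, at 30.6 CPM against 1961 and 2155 CPM in unbound libraries 1 and 2, so results are also given without it. Reads that aligned to several places were 43.8 to 45% of all reads in IP and 31.8 to 32.9% in unbound, and these were not counted to any gene.

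Respiratory chain subunit mRNAs were more abundant in the IP fraction, in every complex. Of the 82 genes tested, 64 were higher in IP, 0 were lower and 18 did not pass an adjusted p of 0.05 (quasi-likelihood test of edgeR, Benjamini-Hochberg adjusted over 16991 genes). Over all genes tested, 21.1% were higher in IP and 23.2% were lower. The median log2 fold change (IP over unbound) of the 82 was 0.94, with quartiles of 0.63 and 1.14, against -0.01 over all genes tested. Among them, 34 were higher by 2-fold or more, which held for 5.97% of all genes tested. The IP libraries all lay above the unbound ones for 67 of the 82, as for 27.1% of all genes, and all below them for 1 gene, Cox6b2. Over all genes, 44.3% were called one way or the other, and the groups did not overlap for 55.9%. At an unadjusted p under 0.05, 67 of these genes were higher and 1, Cox6b2, was lower, and DESeq2 and limma-voom also called 0 lower. All 64 that passed were among the 74 with a mean of at least 5 CPM, of which all 74 had a positive log2 fold change. The other 9 were counted at under 5 CPM, and none of the 8 of them that could be tested passed with TMM scaling in edgeR. Without unbound replicate 3, 71 were higher and 0 lower, where 24% of all genes were higher and 25.8% lower, and without the third IP and unbound libraries 71 were higher and 1 lower, where 26% were higher and 27.3% lower. In the lane 2 libraries alone, 2 a group, 53 were higher and 0 lower, where 7.49% of all genes were higher and 14.7% lower, and lane 4 held only 1 library a group.

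The subunit genes together took 2.12, 1.87 and 2.04% of the gene counts in IP libraries 1, 2 and 3, against 1.22, 1.10 and 1.42% in unbound libraries 1, 2 and 3. The groups did not overlap, with means of 2.01% ± 0.128 in IP and 1.25% ± 0.164 in unbound (SD, n = 3 each), a ratio of 1.61. An exact two-sided permutation test gave p = 0.1, the smallest value that 3 against 3 allows. Complex I had the largest ratio of shares among the complexes, 0.642% in IP against 0.348% in unbound (1.85-fold), and complex V the smallest, 0.682% in IP against 0.483% in unbound (1.41-fold). In bulk RNA, fewer cells of a type and less RNA per cell cannot be told apart, and the part that the higher share of neuronal transcripts in IP has in these differences was not tested.

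**Figure D1:**
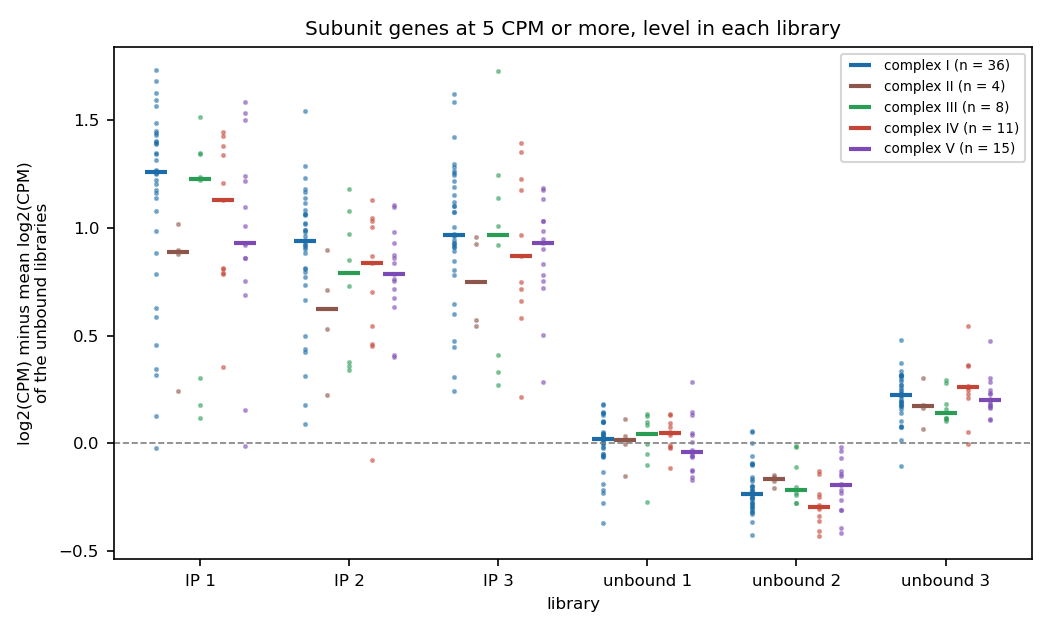
Level of each of the 74 subunit genes at 5 CPM or more in each library, as log2 CPM minus its mean over the 3 unbound libraries; points are genes, bars are the median of each complex. The medians of all 5 complexes are above 0.5 in every IP library and within about 0.3 of zero in the unbound libraries, where library 2 is lowest and library 3 highest.

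A short promoter stretch was read for the subunit genes because many of them are known targets of nuclear respiratory factor 1 (NRF1), a transcription factor named for its role at such genes. Of 69 subunit genes matched in RefSeq promoters (build GRCm38.p6), 13 (18.84%) held the NRF1 motif (GCGCA, any base, then GCGC, or its reverse complement GCGC, any base, then TGCGC) in the 250 bases before the annotated start, on either strand, with a match that reads the same on both strands counted once. The same letters were found before 4.233% of all 27025 genes in that table and 8.308% of the 11675 that were also tested here. The median log2 fold change was 1.0 for subunit genes with the motif and 0.96 for those without it. The motif CCGGAAGT (reverse complement ACTTCCGG), bound by GABP, another factor known at these genes, was found before 3 of the 69 (4.348%), against 3.23% of all genes and 5.859% of those tested. Only 3 subunit genes held more than 1 NRF1 match, and these 3 are shown. Their log2 fold changes were 1.59 for Ndufb4, 0.62 for Cox6a1 and 0.33 for Sdha. Each is on the minus strand, written 5′ to 3′ with NRF1 matches in capitals, up to the first base of the gene in GENCODE M21: Ndufb4 at chr16:37654454-37654618 (1 of its 3 matches lies in this stretch), Cox6a1 at chr5:115348982-115349208 (2 of 2) and Sdha at chr13:74350281-74350490 (2 of 3).
Ndufb4: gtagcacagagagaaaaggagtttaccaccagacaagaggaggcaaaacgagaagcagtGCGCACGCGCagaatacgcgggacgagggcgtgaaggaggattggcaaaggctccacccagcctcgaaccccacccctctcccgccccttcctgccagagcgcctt
Cox6a1: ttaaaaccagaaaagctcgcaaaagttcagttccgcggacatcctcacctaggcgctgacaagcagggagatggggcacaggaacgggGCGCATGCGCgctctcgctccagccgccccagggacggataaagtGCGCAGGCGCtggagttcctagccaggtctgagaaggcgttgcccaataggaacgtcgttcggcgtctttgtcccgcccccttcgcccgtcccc
Sdha: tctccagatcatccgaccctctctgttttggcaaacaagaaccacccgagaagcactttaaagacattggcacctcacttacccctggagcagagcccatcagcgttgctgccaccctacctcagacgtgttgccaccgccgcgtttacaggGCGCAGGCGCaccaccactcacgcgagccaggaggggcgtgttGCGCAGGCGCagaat
These matches are a description of letters and not of bound sites.

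Complex I, the NADH dehydrogenase, is built from a core that carries the electron path and a larger set of accessory subunits that stabilise it. All 36 of its genes listed here were tested, 33 were higher in IP, and their median log2 fold change was 1.04. Of the accessory subunit genes, 28 of 29 were higher, with a median log2 fold change of 1.11. Among them Ndufb4, a membrane arm subunit, had the largest log2 fold change, 1.59 (SE 0.19, adjusted p = 0.00049). Its level was 27.2, 24.7 and 26.1 CPM in IP, against 9.27, 6.57 and 9.999 CPM in unbound, and the groups were far apart. Ndufb6, also of the membrane arm, stood at 184, 135 and 148 CPM in IP and at 57.1, 44.6 and 66.7 CPM in unbound (log2 fold change 1.47, SE 0.19). Ndufc1, one of the smallest subunits, stood at 232, 170 and 225 CPM in IP and at 82.5, 59.7 and 85.5 CPM in unbound (log2 fold change 1.46, SE 0.19). In both genes IP library 2 was the lowest IP library and unbound library 2 the lowest unbound one.

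A further group of accessory genes rose by 2-fold or more, namely Ndufa1, Ndufa2, Ndufa3, Ndufa5, Ndufa6, Ndufa7, Ndufa11, Ndufa12, Ndufa13, Ndufb2, Ndufb5, Ndufb7, Ndufc2, Ndufs5, Ndufs6 and Ndufv3, with log2 fold changes between 1.0 (Ndufs5) and 1.32 (Ndufa6 and Ndufb5). Ndufa13, also known as GRIM-19, reached 378, 293 and 278 CPM in IP, against 147, 135 and 152 CPM in unbound. Ndufs4, whose loss in mice gives a Leigh-like brain disease, rose by 0.94 on the log2 scale (SE 0.16, adjusted p = 0.00204). Ndufa4 is counted with complex I by its symbol but is now placed in complex IV, and it had the highest mean CPM of the Nduf genes. It stood at 535, 400 and 458 CPM in IP and at 185, 142 and 266 CPM in unbound, a log2 fold change of 1.23 (SE 0.23, adjusted p = 0.00311). The groups did not overlap for this gene. The accessory gene at the other end was Ndufa10, with 179, 204 and 228 CPM in IP and 141, 154 and 205 CPM in unbound, where the groups overlapped and the log2 fold change of 0.29 (SE 0.17) did not pass (adjusted p = 0.202), but did without unbound replicate 3 (0.46, adjusted p = 0.0259). Ndufa9 and Ndufb9 were higher by 0.65 (adjusted p = 0.0146) and 0.53 (adjusted p = 0.042), and both calls were lost without unbound replicate 2, that on Ndufb9 also without IP replicate 1, IP replicate 3 or unbound replicate 1.

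Of the 7 core genes, 5 were higher, and the difference from the accessory genes was not tested. Ndufv2, an iron-sulfur subunit of the NADH-oxidising tip, had the largest change of the core genes, at 353, 309 and 311 CPM in IP against 142, 132 and 173 CPM in unbound (log2 fold change 1.12, SE 0.15, adjusted p = 0.00069). Ndufs7 and Ndufs8, which carry the last iron-sulfur clusters before ubiquinone, had log2 fold changes of 1.0 and 0.91. Ndufv1, the flavin-bearing subunit that takes electrons from NADH, stood at 132, 146 and 142 CPM in IP and at 94.5, 99.7 and 119 CPM in unbound, and the log2 fold change came to 0.42 (SE 0.14, adjusted p = 0.0331). Ndufs3 rose by 0.44 (adjusted p = 0.0261). The calls on Ndufv1 and Ndufs3 were lost when IP replicate 1, IP replicate 2 or unbound replicate 2 was left out, and that on Ndufv1 also without unbound replicate 1. Ndufs1, the largest core subunit, stood at 83.9, 90.4 and 101 CPM in IP, against 72.4, 88.4 and 96.4 CPM in unbound, with overlapping groups and a log2 fold change of 0.10 (SE 0.15, adjusted p = 0.621). The core genes made up 17.9% ± 1.34 of the complex I counts in IP and 21.5% ± 1.52 in unbound (SD, n = 3 each).

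**Figure D2:**
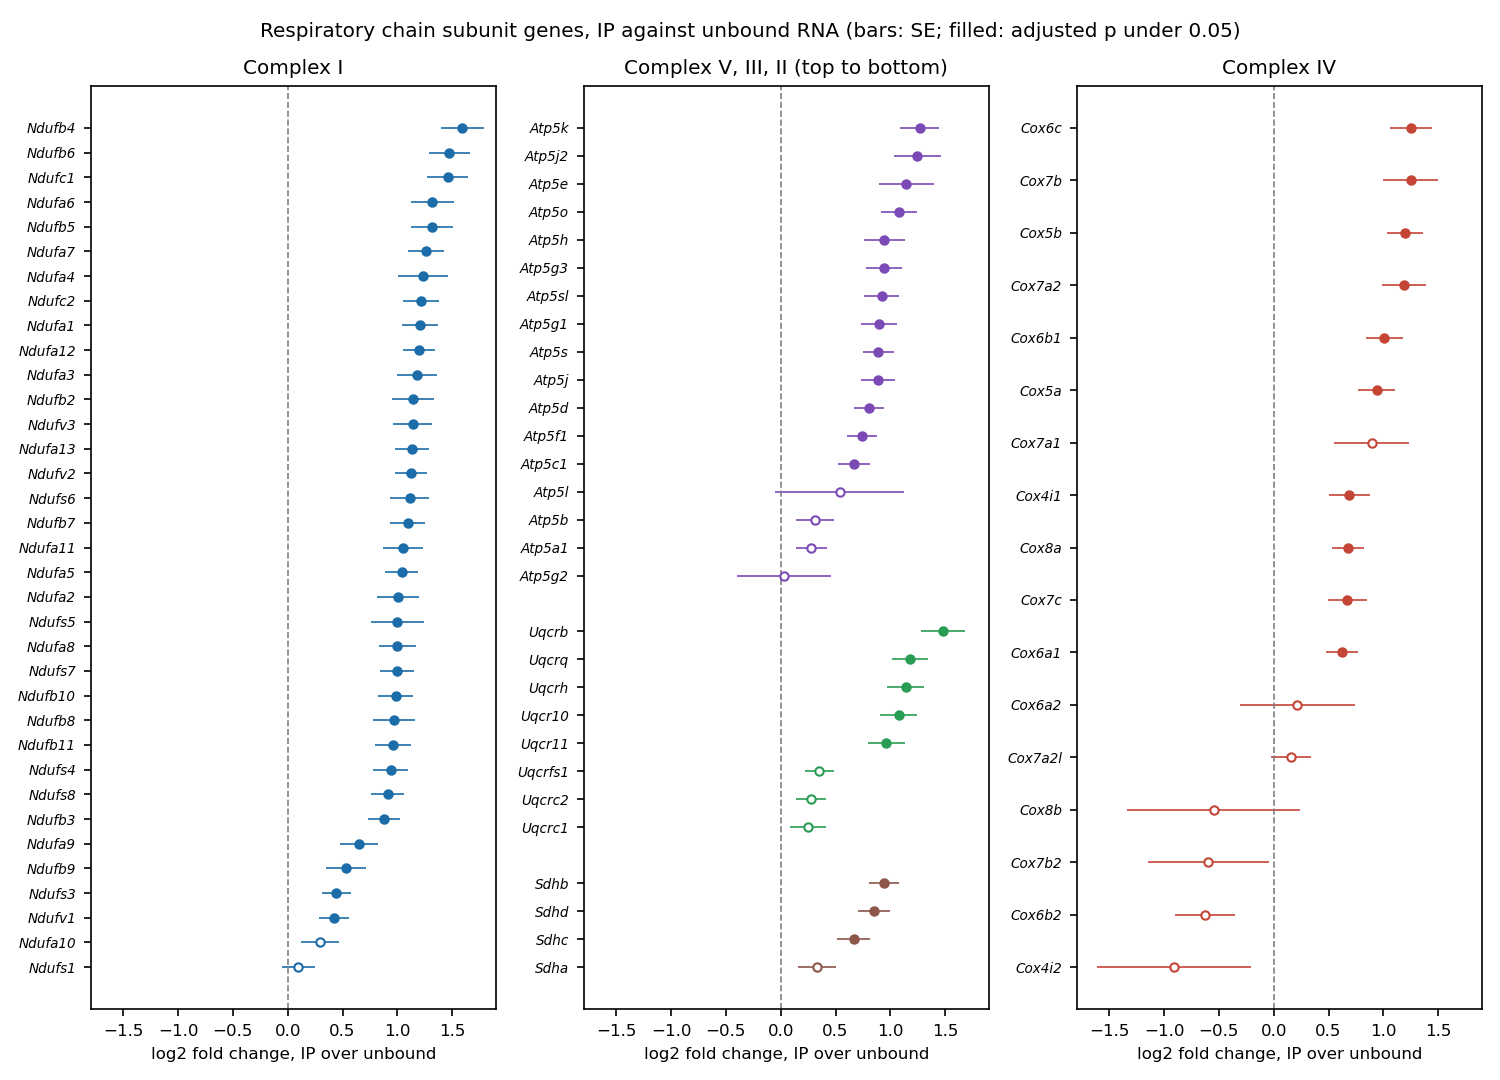
Log2 fold change (IP over unbound) of 81 of the 82 subunit genes tested, by complex, with bars for the standard error; filled points passed an adjusted p of 0.05 and open points did not. Complex I runs between 0.10 (Ndufs1) and 1.59 (Ndufb4), and the only genes below 0 are the rare complex IV isoforms Cox8b, Cox7b2, Cox6b2 and Cox4i2, all open.

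Complex II, succinate dehydrogenase, is the enzyme shared by the respiratory chain and the tricarboxylic acid (TCA) cycle, and it is encoded wholly in the nucleus. Its iron-sulfur subunit Sdhb stood at 167, 154 and 156 CPM in IP and at 82.2, 73.9 and 92.4 CPM in unbound, a log2 fold change of 0.94 (SE 0.13, adjusted p = 0.00092). The membrane anchors were higher too, Sdhd with 328, 288 and 341 CPM in IP against 180, 152 and 199 CPM in unbound (log2 fold change 0.85), and Sdhc with 305, 240 and 246 CPM in IP against 179, 146 and 173 CPM in unbound (log2 fold change 0.66). For all 3 of these genes the groups were clear of each other. The catalytic flavoprotein Sdha had 399, 395 and 493 CPM in IP and 304, 304 and 416 CPM in unbound. Unbound library 3 lay above IP libraries 1 and 2 for Sdha, and its log2 fold change of 0.33 (SE 0.17) did not pass (adjusted p = 0.15). Without unbound replicate 3 it was 0.49 (adjusted p = 0.0208), and with same-numbered libraries as a replicate block 0.34 (adjusted p = 0.0347). With that block 67 subunit genes were higher and 0 lower, where 23.3% of all genes were higher and 23.6% lower.

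Complex III hands electrons from ubiquinol to cytochrome c. Its 5 small subunit genes were all higher in IP, with a median log2 fold change of 1.14. Uqcrb, which helps to form the ubiquinone site, stood at 23.3, 18.5 and 27.0 CPM in IP, against 8.95, 6.89 and 8.75 CPM in unbound (log2 fold change 1.48, SE 0.20, adjusted p = 0.00075). Uqcrq stood at 329, 274 and 286 CPM in IP and at 139, 107 and 147 CPM in unbound (log2 fold change 1.18, SE 0.16). Uqcrh, the hinge protein between cytochromes c1 and c, was the most abundant gene of the complex by CPM, with 514, 429 and 517 CPM in IP and 218, 180 and 265 CPM in unbound (log2 fold change 1.14, SE 0.17). For these genes the lowest IP library was well above the highest unbound library, and Uqcr10 and Uqcr11 also rose, by 1.08 and 0.96. The large core proteins Uqcrc1 and Uqcrc2 and the Rieske iron-sulfur protein Uqcrfs1 did not pass, with 0 of 3 called. Uqcrc1 stood at 104, 117 and 111 CPM in IP and at 76.2, 90.9 and 113 CPM in unbound (log2 fold change 0.25, SE 0.16, adjusted p = 0.247). Uqcrc2 stood at 224, 268 and 260 CPM in IP and at 193, 205 and 224 CPM in unbound (log2 fold change 0.28, SE 0.14, adjusted p = 0.129). Uqcrfs1 stood at 130, 135 and 140 CPM in IP and at 102, 97.4 and 118 CPM in unbound (log2 fold change 0.35, SE 0.13, adjusted p = 0.0529). Only Uqcrc1 overlapped between the groups, in unbound library 3, and without that library Uqcrc1 (0.40, adjusted p = 0.0358) and Uqcrfs1 (0.43, adjusted p = 0.0176) passed, Uqcrfs1 also with the replicate block (0.36, adjusted p = 0.0311). These 3 genes made up 29.3% ± 3.74 of the complex III counts in IP and 42.4% ± 3.39 in unbound (SD, n = 3 each), a grouping made after their values were seen.

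Complex IV, cytochrome c oxidase, has nuclear subunits that surround the mitochondrially encoded core, several of them with isoforms that differ between tissues. Of its 17 genes tested, 10 were higher in IP, with a median log2 fold change of 0.68. Cox6c stood at 563, 422 and 536 CPM in IP and at 231, 163 and 245 CPM in unbound (log2 fold change 1.25, SE 0.19, adjusted p = 0.00128). Cox7b stood at 483, 366 and 467 CPM in IP and at 164, 131 and 259 CPM in unbound (log2 fold change 1.25, SE 0.25, adjusted p = 0.00413). Cox5b, which binds zinc on the matrix side, stood at 159, 138 and 142 CPM in IP and at 65.3, 51.3 and 74.8 CPM in unbound (log2 fold change 1.20, SE 0.16, adjusted p = 0.00076). The groups did not overlap for any of these genes, and unbound library 3 was the highest unbound library in each. Cox7a2 stood at 403, 317 and 362 CPM in IP and at 160, 117 and 199 CPM in unbound (log2 fold change 1.19), and Cox6b1 at 487, 385 and 412 CPM in IP and at 222, 173 and 244 CPM in unbound (1.01). Cox5a, the partner of Cox4i1 on the matrix side, rose by 0.94. Cox4i1, the largest nuclear subunit and the one with the highest CPM in the complex, stood at 860, 809 and 785 CPM in IP and at 491, 393 and 637 CPM in unbound (log2 fold change 0.69, SE 0.18, adjusted p = 0.0146). The isoforms usual outside muscle were higher too, Cox8a with 375, 291 and 358 CPM in IP against 233, 195 and 213 CPM in unbound (0.68), and Cox6a1 with 646, 507 and 552 CPM in IP against 393, 333 and 382 CPM in unbound (0.62). Cox7c rose by 0.67. Without IP replicate 1 the calls on Cox4i1 and Cox7c were lost, and that on Cox7c also without unbound replicate 2. Cox7a2l, counted here by symbol, is known as a factor that joins complexes III and IV into supercomplexes, and it stood at 136, 101 and 124 CPM in IP and at 110, 86.4 and 128 CPM in unbound, a log2 fold change of 0.16 (SE 0.18, adjusted p = 0.507) with overlapping groups.

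The minor complex IV isoforms were rare in both fractions, and none passed with TMM scaling in edgeR. Cox6b2, known as the testis isoform of Cox6b, stood at 2.80, 2.60 and 3.02 CPM in IP and at 5.24, 3.40 and 4.39 CPM in unbound. Every IP library lay below every unbound one, with a log2 fold change of -0.63 (SE 0.27, adjusted p = 0.0898). It was called lower with pan-neuronal (adjusted p = 0.00629), mitochondrial ribosomal protein (0.00176) and cytosolic ribosomal protein scaling (0.0414) and with the length trend removed (0.00782). Cox4i2, known as the lung isoform that is induced by low oxygen, stood at 0.238, 0.161 and 0.733 CPM in IP and at 0.601, 0.407 and 1.15 CPM in unbound (log2 fold change -0.91, SE 0.70, adjusted p = 0.32). Cox7b2 stood at 0.499, 1.16 and 0.600 CPM in IP and at 1.60, 1.19 and 0.599 CPM in unbound (log2 fold change -0.60). Both genes overlapped between the groups. Cox8c was at 0 reads in all libraries but unbound library 1, which held 1 read, and was not tested; 3 reads, the limit that a count of 0 allows for counting error, come to 0.0667 to 0.0964 CPM in these libraries.

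The isoforms usual in heart and skeletal muscle, Cox6a2, Cox7a1 and Cox8b, did not pass in that fit either. Cox7a1 stood at 4.11, 2.60 and 3.13 CPM in IP and at 1.68, 1.37 and 2.25 CPM in unbound, where the groups did not overlap but the log2 fold change of 0.89 (SE 0.34) missed the threshold (adjusted p = 0.0594). It passed without unbound replicate 3 (1.10, adjusted p = 0.029). With all libraries it also passed in DESeq2 (0.87, adjusted p = 0.0401) and with TMM factors computed without ribosomal protein genes and members (0.93, adjusted p = 0.0459). Cox6a2 stood at 6.29, 2.18 and 7.51 CPM in IP and at 5.91, 5.93 and 1.99 CPM in unbound (log2 fold change 0.22, adjusted p = 0.76). Cox8b stood at 0.523, 0.289 and 1.0 CPM in IP and at 1.33, 1.22 and 0.144 CPM in unbound (log2 fold change -0.55, adjusted p = 0.598). In Cox6a2 and Cox8b unbound library 3 was far below the other unbound libraries, and without the third IP and unbound libraries Cox8b was lower in IP (log2 fold change -1.64, adjusted p = 0.0443). The summed level of 8 heart and muscle markers was 73.9 to 95.6 CPM in IP and 18.5 to 29.8 CPM in unbound. Most of the IP sum was Tnnt2 (44.9 to 62.2 CPM) and Myh7 (16.0 to 19.4 CPM). Of the 6 markers tested, only these 2 were called higher, and 0 were lower. Ckm lay between 0 and 0.48 CPM and Actc1 between 0.0444 and 0.289 CPM over the 6 libraries. The part of these markers in the isoform levels was not tested.

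A share of an isoform family does not move with library scaling. Cox6b2 made up 0.572, 0.671 and 0.729% of the Cox6b counts in IP and 2.30, 1.93 and 1.77% in unbound. Cox4i2 made up 0.0276, 0.0199 and 0.0933% of the Cox4i counts in IP and 0.122, 0.103 and 0.180% in unbound. In both families every IP library lay below every unbound one. The same held for Cox7a1, with means of 0.894% ± 0.102 in IP and 1.11% ± 0.0594 in unbound, and for Atp5g2, with 0.112% ± 0.00756 in IP and 0.212% ± 0.0117 in unbound (SD, n = 3 each). Exact two-sided permutation tests gave p = 0.1 for each of these 4, the smallest possible, and 0.25 after Benjamini-Hochberg adjustment over 10 isoform shares. Cox7b2, at 0.182% ± 0.116 in IP and 0.700% ± 0.408 in unbound, Cox8b, at 0.172% ± 0.0941 in IP and 0.419% ± 0.305 in unbound, and Cox6a2, at 0.913% ± 0.459 in IP and 1.25% ± 0.646 in unbound, overlapped between the groups. The complex V c subunit is encoded by Atp5g1, Atp5g2 and Atp5g3, which give the same mature protein. Atp5g3 supplied 93.3% ± 0.781 of these counts in IP and 93.0% ± 0.780 in unbound, and Atp5g1 6.62% ± 0.787 in IP and 6.80% ± 0.786 in unbound. Atp5g2 has 2 near-identical copies in the annotation, Atp5g1 has 1 and Atp5g3 has 0. Reads that align to such copies would be left uncounted, so the shares of Atp5g2 and Atp5g1 are uncertain.

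**Figure D3:**
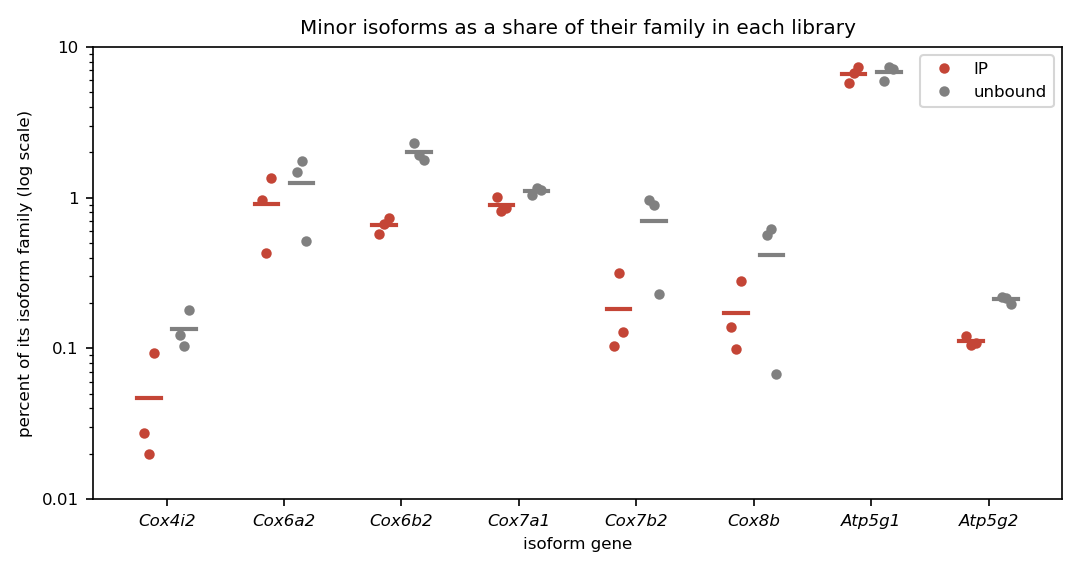
Each minor isoform as a percent of the counts of its isoform family (log scale) in the 3 IP and 3 unbound libraries, with bars at the group means. Cox6b2, Cox4i2, Cox7a1 and Atp5g2 lie lower in every IP library than in every unbound library, while Cox6a2, Cox7b2, Cox8b and Atp5g1 overlap.

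In complex V, 13 of 17 genes were higher in IP, with a median log2 fold change of 0.89. The small membrane subunits e and f, encoded by Atp5k and Atp5j2, were the highest. Atp5k stood at 193, 142 and 151 CPM in IP and at 64.2, 56.7 and 81.3 CPM in unbound (log2 fold change 1.27, SE 0.18, adjusted p = 0.00095). Atp5j2 stood at 244, 161 and 185 CPM in IP and at 98.9, 61.7 and 87.7 CPM in unbound (log2 fold change 1.25, SE 0.22, adjusted p = 0.00223). Atp5e, the epsilon subunit of the rotor stalk, stood at 323, 209 and 250 CPM in IP and at 109, 85.4 and 159 CPM in unbound (log2 fold change 1.15, SE 0.25, adjusted p = 0.00617). IP library 1 was the highest library for each of these genes, and no unbound library reached an IP library. Atp5o, which encodes the connection between the stator and the head, rose by 1.08, and the c subunit genes Atp5g3 and Atp5g1 by 0.94 and 0.90. Atp5g3 stood at 799, 678 and 698 CPM in IP and at 384, 311 and 437 CPM in unbound, and Atp5g1 at 49.3, 48.6 and 55.6 CPM in IP and at 24.1, 24.8 and 33.4 CPM in unbound. The other stalk and stator genes also rose, Atp5h by 0.95, Atp5j by 0.89, Atp5d by 0.81, Atp5f1 by 0.74 and Atp5c1 by 0.67. Atp5s, known as coupling factor B, and Atp5sl, now named Dmac2 and known as a complex I assembly factor, are counted here by symbol only, with log2 fold changes of 0.89 and 0.92.

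The alpha and beta subunits of the catalytic head did not pass. Atp5b, the beta subunit that makes ATP, had the highest CPM of all the subunit genes, with 1962, 2628 and 2807 CPM in IP and 1806, 1886 and 2273 CPM in unbound. Atp5a1, the alpha subunit, stood at 788, 935 and 863 CPM in IP and at 650, 691 and 793 CPM in unbound. Both genes overlapped between the groups, in each case through IP library 1 and unbound library 3. Their log2 fold changes of 0.31 (SE 0.17, adjusted p = 0.179) and 0.28 (SE 0.14, adjusted p = 0.139) did not pass, and without unbound replicate 3 Atp5a1 did (0.36, adjusted p = 0.0439). Together they made up 47.1% ± 5.92 of the complex V counts in IP and 57.8% ± 2.57 in unbound (SD, n = 3 each), a grouping made after their values were seen. Atp5g2 stood at 1.02, 0.771 and 0.822 CPM in IP and at 0.902, 0.726 and 0.935 CPM in unbound (log2 fold change 0.03, SE 0.43, adjusted p = 0.962). Atp5l, the g subunit, was listed at 0.333, 0.386 and 0.578 CPM in IP and at 0.426, 0.174 and 0.288 CPM in unbound, and it has 10 near-identical copies in the annotation to which its reads may also align.

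Per kilobase of transcript, the subunit gene with the most counted reads was Atp5b, with 1287 ± 233 CPM per kb in IP and 1038 ± 130 in unbound (SD, n = 3 each). Reads that align to several places were not counted, so the 23 genes with a near-identical copy may stand too low in this order. In IP, Cox4i1 followed at 1098 ± 51.4, then Atp5g3 at 1015 ± 90.5, Cox6c at 1008 ± 150 and Cox6a1 at 995 ± 124 CPM per kb, and these neighbours differed by less than their spread. In unbound, Cox4i1 (680 ± 165) and Cox6a1 (647 ± 55.5) came next, while Atp5g3 (528 ± 88.8) and Cox6c (424 ± 87.4) lay lower. Sdha, the most abundant of complex II by CPM, came to 148 ± 19.2 CPM per kb in IP and 118 ± 22.2 in unbound.

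Log2 fold changes were lower for subunit genes with longer transcripts. The members' median transcript length was 714 bases, against 2375 bases for all annotated coding genes, and over the 74 at 5 CPM or more the log2 fold change correlated with transcript length at Pearson's r = -0.65 (Spearman's rho = -0.60), across genes, which share libraries and are not independent replicates. Over 10767 coding genes at this level the values were -0.24 and -0.32. Members of up to 500 bases had a median log2 fold change of 1.14 (10 genes), against 0.69 for other coding genes of that length. From 500 to 1000 bases the medians were 1.01 (39 genes) against 0.59, and from 1000 to 1500 bases 0.87 (12 genes) against 0.49. From 1500 to 2000 bases they were 0.44 (8 genes) against 0.37, and over 2000 bases 0.29 (5 genes) against 0.07. In each of these 5 ranges the subunit genes had the higher median, and both sets of medians fell with length. Over 2000 bases only Sdhc of the 5 was higher in IP, while Sdha, Ndufs1, Atp5a1 and Ndufa10 did not pass. From 1500 to 2000 bases 4 of the 8 were higher, and Atp5b, Uqcrc1 and Uqcrc2 were among those that did not pass. The part of length in the lower fold changes of the large core and head subunits was not tested. The part of length in the fold changes was not tested beyond a fit with the length trend removed, in which 54 subunit genes were higher and 1 lower, with a median of 0.54, against 20.5% higher and 20.3% lower among all genes in that fit. GC content showed no such relation among the subunit genes (r = -0.03).

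**Figure D4:**
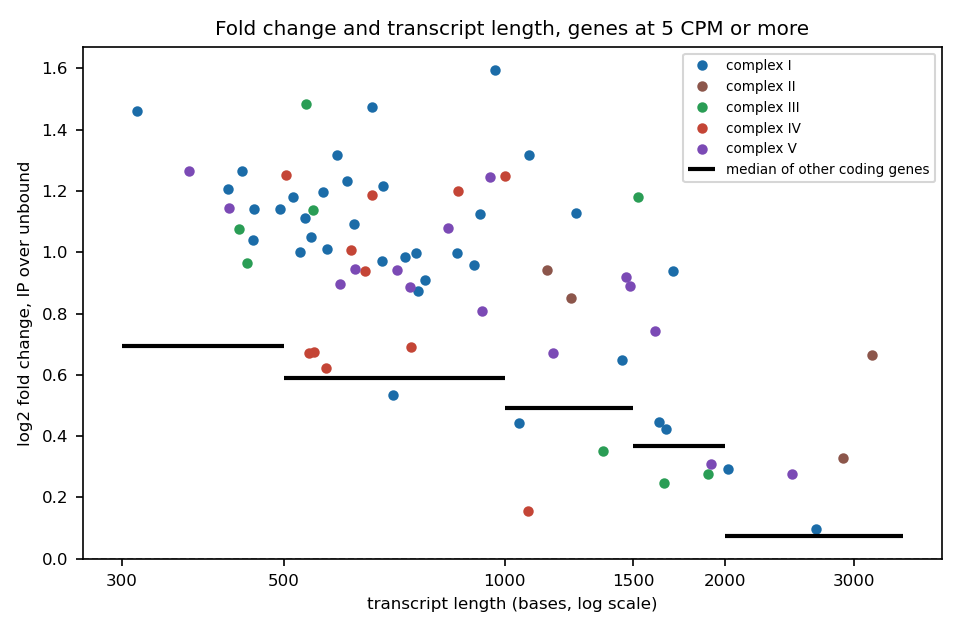
Log2 fold change (IP over unbound) of the 74 subunit genes at 5 CPM or more against transcript length in bases (log scale), coloured by complex, with black bars at the median of other coding genes in the same length range. Most subunit genes lie above the bar of their range, and the points fall with length, with medians of 1.14 up to 500 bases and 0.29 over 2000 bases.

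Library scaling moved the members together with all other genes. Median-ratio size factors, library size alone, the upper quartile, and TMM factors computed without ribosomal protein genes and members gave 63, 61, 61 and 66 higher, in that order, and 0 lower. Over all genes these fits called 19.7%, 16.8%, 15.3% and 22.7% higher and 24%, 25.5%, 26.3% and 22.5% lower, in the same order. Scaling on cytosolic ribosomal protein genes left 59 higher and 1 lower, Cox6b2, where 12.1% of all genes were higher and 25.7% lower. With a GC trend removed 62 were higher and 0 lower, where 20.4% of all genes were higher and 21.3% lower. Scaling on the 20 pan-neuronal markers gave 27 higher and 2 lower (Cox6b2 and Ndufs1), with a median log2 fold change of 0.36, where the median of all genes was -0.60 and 3.93% of all genes were higher and 46% lower. Relative to neuronal transcripts, the 27 included Ndufb4 (1.0, adjusted p = 0.00334), Ndufb6, Ndufc1, Uqcrb, Cox6c, Cox5b and Atp5k, and no Sdh gene. Scaling on 76 mitochondrial ribosomal protein genes gave 14 higher and 8 lower, with a median of 0.16, where the median of all genes was -0.80 and 2.3% of all genes were higher and 56.4% lower. The 14 were Ndufa1, Ndufa6, Ndufa7, Ndufa12, Ndufb4, Ndufb5, Ndufb6, Ndufc1, Ndufc2, Uqcrb, Uqcrq, Cox5b, Cox6c and Atp5k, and they passed under every scaling and trend setting tried. The 8 were Ndufa10, Ndufs1, Uqcrc1, Uqcrc2, Uqcrfs1, Atp5a1, Cox7a2l and Cox6b2. The median of the subunit genes exceeded that of all genes by 0.95 with TMM and by 0.96 with pan-neuronal and mitochondrial ribosomal protein scaling. A scaling factor moves all genes nearly alike, so this gap could hardly change between scalings. It was 0.51 with the length trend removed and 0.81 with the strict count filter.

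**Figure D5:**
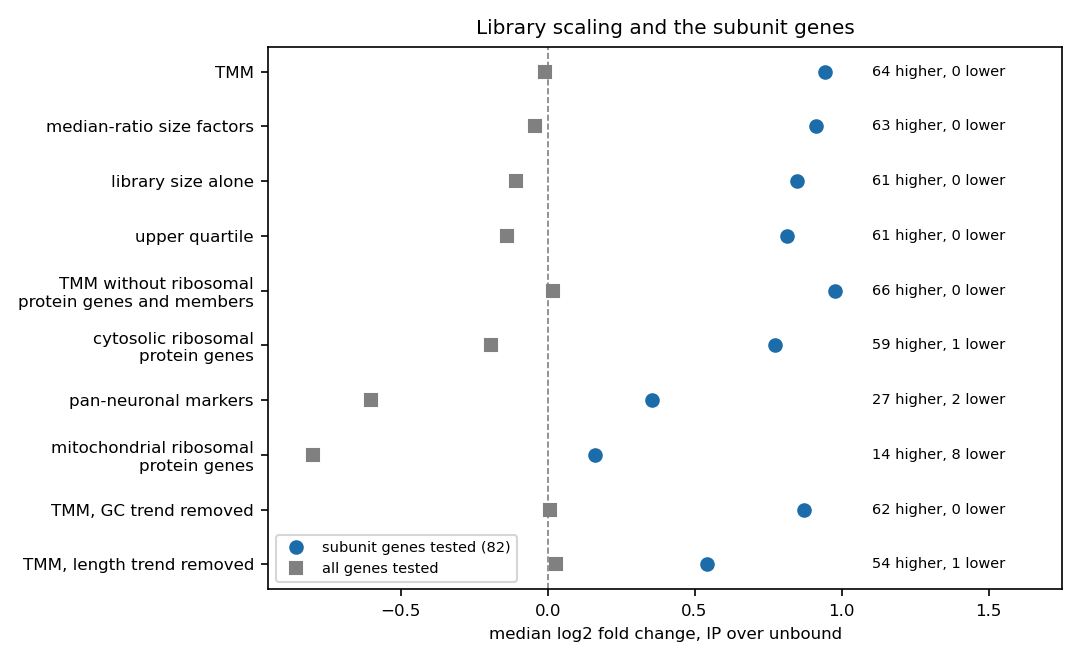
Median log2 fold change (IP over unbound) of the 82 subunit genes tested (circles) and of all genes tested (squares) under each library scaling or trend correction, with the number of subunit genes called higher and lower. The circles lie right of the squares under every setting, and the smallest subunit median, 0.16 with 14 higher and 8 lower, comes with mitochondrial ribosomal protein scaling.

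Other genes of the pathway were counted from lists. For comparison, 21.1% of all genes tested were higher in IP and 23.2% were lower. A chosen list of 5 genes outside the symbol pattern held subunits, a carrier and an inhibitor, and all 5 were higher in IP. They were Atpif1, the inhibitor of ATP synthase (log2 fold change 1.57), Usmg5 (1.63), Ndufab1 (1.09), Cyc1, cytochrome c1 (0.83), and Cycs, cytochrome c (0.58). Of 47 assembly factors tested, 27 were higher and 1 lower, with a median of 0.60, and those with the smallest adjusted p were Coa3 (1.41), Sdhaf4 (1.22), Ndufaf3 (0.92) and Uqcc2 (1.18). Mitochondrial ribosomal protein genes, which serve translation inside the organelle, had 67 of 76 higher, 0 lower and a median of 0.80. Coenzyme Q synthesis had 6 of 12 higher and 0 lower (median 0.46), among them Coq7 (1.09) and Coq5 (0.79). The TCA cycle had 6 of 16 higher and 1 lower (median 0.37), with Idh3b (0.77), Idh3a (0.66) and Dlat (0.64) higher. The lower one was Suclg2, the GTP-forming succinyl-CoA ligase subunit, which averaged 1.74 ± 0.412 CPM in IP and 5.85 ± 0.815 CPM in unbound (SD, n = 3 each; log2 fold change -1.75, adjusted p = 0.00161). Cytosolic ribosomal protein symbols, a pattern that also takes some kinases, had 19 of 90 higher and 7 lower, with a median of 0.19. Their share of higher calls was near that over all genes.

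Of 12 regulators of mitochondrial biogenesis, 2 were higher and 2 lower in IP, with a median log2 fold change of -0.14. Over all genes tested, 21.1% were higher and 23.2% lower, so the regulators were not called more often than other genes. Tfam, which packages and transcribes mitochondrial DNA, rose to 93.3 ± 8.10 CPM in IP, against 60.9 ± 9.74 CPM in unbound (log2 fold change 0.62, adjusted p = 0.0112). The coactivator Ppargc1a averaged 281 ± 17.5 CPM in IP and 216 ± 19.3 CPM in unbound (0.38, adjusted p = 0.0442), while its relative Ppargc1b fell to 8.31 ± 0.675 CPM in IP, against 13.2 ± 1.22 CPM in unbound (-0.66, adjusted p = 0.0138). Gabpa, a subunit of the factor GABP, was lower in IP, with 33.0 ± 6.13 CPM there against 60.1 ± 5.82 CPM in unbound (-0.87, adjusted p = 0.00328), and its exons overlap those of Atp5j on the other strand. Nrf1 itself had 16.4 ± 0.412 CPM in IP and 17.8 ± 3.23 CPM in unbound and did not pass (-0.12, adjusted p = 0.605; SD, n = 3 each throughout). No listed feature carried the symbol of a mitochondrially encoded subunit, so those subunits were not analysed here.

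Counting can touch some of these values. The exons of 28 subunit genes overlap another gene, 25 of them on the other strand, and the strand setting of the counting is not given in the sources used here. Ambiguous reads, which fell on several features, were 1.58 to 1.64% of all reads in IP and 7.08 to 9.02% in unbound, and reads in no feature 7.57 to 8.0% in IP and 12.5 to 13.5% in unbound, and the part of these differences in the values was not tested. A near-identical copy (95% identity over 100 bases or more) exists for 23 genes, and reads that align to both would be left uncounted. The median log2 fold change was 0.96 for genes with such a copy and 0.94 for those without, and 0.91 for genes with overlapping exons and 0.95 for those without. Ndufb4, Uqcrb, Cox7c, Ndufs5, Atp5g1, Atp5g2 and Atp5l are among those with a copy, and their levels are uncertain for that reason.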

How the data were processed

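Raw read counts per gene were deposited for each of the 6 libraries. Per the submitters' processing notes, the authors used STAR 2.0.0e, the mm10 build and HTSeq; the annotation, strand and overlap settings were not given in the sources used here. Entries that name no gene (HTSeq's summary entries and 1 for unknown features, with at most 2 reads) stayed out of library sizes and tests, and reads assigned to genes were 45.0 to 47.7% of all reads. The members and all lists were chosen with earlier results of these data known.

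The main test used edgeR 4.0.16 under R 4.3.3, with filterByExpr at a minimum count of 10 and total of 15. TMM factors were computed over the genes kept by this filter, with library sizes over all gene features. The robust quasi-likelihood fit was on group alone, with a Benjamini-Hochberg threshold of 0.05. CPM use the TMM-scaled library size. Each standard error is the absolute log2 fold change over √F. Values per library are given for the 3 highest and 3 lowest log2 fold changes in complexes I, III, IV and V, all Sdh genes, the isoform families and the most abundant gene of each complex; genes past 2-fold are named, some with ranges only, and a few others were added after their values were seen. Counts of 2 libraries of a group gave chi-square values of 23.0 to 136 per degree of freedom, so none was counted as a copy. Shares were compared by exact permutation.

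Replicate numbers are shared between the groups. Over 16991 genes, the correlation of deviations from the group mean was 0.24, 0.26 and 0.28 for same-numbered libraries and lower for all other combinations. The numbers may therefore mark pairs, which the main test, fitted on group alone, did not use. Only the replicate block and the sign-flip test used them. No label states pairs, and lane follows the numbers (lane 4 for replicate 2, lane 2 for the others). Alternatives were other scalings and filters, DESeq2 1.42.0, limma-voom (limma 3.58.1), a replicate block, lane, removal of GC and length trends, and each library left out; leaving out the third pair was chosen after the data were seen. Lengths and overlaps came from GENCODE M21 (GRCm38), which matched all 83 members, 1 by a synonym, and 23925 of all features. Tested on simulated counts (16679 genes), 35 of 100 changes of 2-fold and 79 of 99 of 4-fold were recovered, with 8 false calls. Only these genes were changed in the simulation, whereas 44.3% of genes were called in the data. The adjusted threshold was therefore stricter there, and these recovery rates need not hold for this comparison. No protein sequence was used here, and 1 gene that counts among the members is not reported here by name.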

Additional observations from a re-analysis of the deposited data

How the results depend on the processing

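Among 81 genes and 24 alternatives, 1722 of 1937 gene values kept their direction and side of the threshold, 142 lost a call, 36 gained one and 59 changed sign, some of these in more than 1 way. The calls of 64 higher and 0 lower moved past 1.5 times with pan-neuronal scaling (27 higher, 2 lower, median log2 fold change 0.36) and mitochondrial ribosomal protein scaling (14 higher, 8 lower, median 0.16), which also shift the median of all genes. With the length trend removed the median was 0.54, and 1 was lower; 1 was lower also with cytosolic ribosomal protein scaling and without the third pair. Leaving out each library gave 59 to 71 higher, 0 lower and a median of 0.85 to 1.06, where 14.3 to 24.0% of all genes were higher and 18.7 to 25.8% lower, and 58 of the 64 remained called in each. The difference in share of gene counts was 0.689 to 0.851 percentage points without each library. Without the most abundant features it was 0.796, but the ratio of shares was 1.54, against 1.61 with them. In same-numbered pairs (replicate block) the difference was 0.762, with an exact sign-flip p of 0.25, the smallest possible. The replicate block gave 67 higher and 0 lower, which kept all 64 and added Sdha and Uqcrfs1 among others.

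Log2 fold changes that changed sign follow, with causes not tested beyond the scaling shift. With mitochondrial ribosomal protein scaling they were Atp5a1 -0.50, Atp5b -0.47, Atp5c1 -0.11, Atp5f1 -0.039, Atp5g2 -0.75, Atp5l -0.22, Cox4i1 -0.083, Cox6a1 -0.17, Cox6a2 -0.61, Cox7a2l -0.63, Cox7c -0.11, Cox8a -0.11, Ndufa10 -0.48, Ndufa9 -0.13, Ndufb9 -0.25, Ndufs1 -0.69, Ndufs3 -0.35, Ndufv1 -0.36, Sdha -0.45, Sdhc -0.12, Uqcrc1 -0.54, Uqcrc2 -0.51 and Uqcrfs1 -0.43. With pan-neuronal scaling they were Atp5a1 -0.32, Atp5b -0.29, Atp5g2 -0.56, Atp5l -0.057, Cox6a2 -0.37, Cox7a2l -0.43, Ndufa10 -0.30, Ndufb9 -0.053, Ndufs1 -0.50, Ndufs3 -0.15, Ndufv1 -0.17, Sdha -0.26, Uqcrc1 -0.35, Uqcrc2 -0.32 and Uqcrfs1 -0.24. With cytosolic ribosomal protein scaling they were Atp5g2 -0.15, Cox6a2 -0.026, Cox7a2l -0.011 and Ndufs1 -0.080, and with the length trend removed Atp5g2 -0.40, Cox6a2 -0.27 and Cox7a2l -0.16. Atp5g2 was also at -0.0017 in DESeq2, -0.0019 with median-ratio size factors, -0.067 with library size alone, -0.10 with the upper quartile, -0.12 with the GC trend removed (-0.12 also with the replicate block), and between -0.088 and 0.12 with each library left out (below 0 without IP replicate 1 or unbound replicate 2, -0.069). Ndufs1 was at -0.030 with the upper quartile and -0.022 with the strict count filter. Cox6a2 was between -0.14 and 0.60 with each library left out (below 0 without IP replicate 3, at -0.096, or unbound replicate 3), and at -0.48 without the third pair, and Cox8b was at 0.056 in lane 2 alone. Low counts limit the 9 genes under 5 CPM, of which Cox6b2, Cox7a1 and Cox8b passed in some alternatives. Among these 9, Atp5g2 and Atp5l have near-identical copies to which their reads may also align.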
